A study of Mus musculus with 12 samples.

Results

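P19 is a line of mouse embryonal carcinoma cells, wild type in genotype, which retinoic acid turns into neuron-like cells. The first step of that course was described by comparing cells after 2 days of differentiation (D2, 3 libraries) with undifferentiated cells (D0, 3 libraries), 6 of the 12 libraries of a series that also sampled days 4 and 6 (D4 and D6). D0 cells were kept in a Dulbecco's medium with fetal bovine serum, and D2 cells had been seeded on poly-L-lysine in NDiff 227, a defined medium, with 500 nM retinoic acid. The agent, the medium, the coating and the time in culture changed together, and every sequencing run held 1 day, so that their parts in a difference between the days cannot be told apart. Native RNA was read on nanopores, and each read was assigned to a transcript and had its poly(A) tail measured. Reads on nuclear mRNA that passed the quality tag of the tail caller were summed per gene, and 449406 to 613756 reads per library were kept at D0 and 120326 to 241064 at D2, in all 2127926 of the 4274320 kept reads of the series. A read was found for 14042 genes, and the 9309 with at least 30 reads over the 12 libraries were tested with limma-voom.

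Retinoic acid is made from vitamin A, is carried in the cytoplasm by small binding proteins and is broken down by enzymes of the Cyp26 family. In the nucleus it binds retinoic acid receptors, which pair with retinoid X receptors on direct repeats of a short hexamer. It is best known in the embryo for switching on Hox genes along the hindbrain and trunk, and in embryonal carcinoma cells for ending pluripotency and opening a neural programme. The poly(A) tail is added in the nucleus and is shortened in the cytoplasm, and its length is one of the features tied to the translation and decay of an mRNA.

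The labelled cell type was checked first. Of the markers of pluripotent cells, Pou5f1 had 2473 reads at D0 and 4 at D2, Lin28a had 238 and 31, Utf1 had 84 and 0, and Sox2 had 377 and 89. Nanog had 17 reads at D0 and 0 at D2, Dppa4 had 1 read at D0, and no read was kept for Zfp42. In bulk RNA, fewer cells of a type and less RNA per cell cannot be told apart, which applies to every abundance below.

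After 2 days, 437 genes were higher (4.69% of the 9309 tested) and 573 were lower (6.16%) at an adjusted p of at most 0.05 by limma-voom with Benjamini-Hochberg adjustment. Levels are given as reads, or as CPM (reads per 1000000 reads, with the library total scaled by a trimmed-mean factor), and differences as log2 of D2 over D0. The median difference over all genes tested was -0.04. With plain library totals it was 0.13 and the calls were 703 higher and 371 lower, so that the share of calls that were higher went from 43.3% to 65.5%. The 3 D0 and 3 D2 libraries did not overlap for 2634 genes (28.3%). Single libraries moved these counts. Without D2 replicate 2, 302 genes were lower and 352 higher. Without D2 replicate 3 there were 315 lower and 395 higher genes, so that the larger side changed in both cases, and without D0 replicate 2 there were 378 and 336. The gene lists below were described by their counts and medians, with 4.69% higher, 6.16% lower and a median of -0.04 as the values over all genes.

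By log2 difference, the largest rise was that of a gene of retinoic acid handling. Crabp1, which encodes a cytoplasmic retinoic acid binding protein, had 2, 7 and 3 reads in the D0 libraries and 198, 342 and 278 in the D2 libraries. The days did not overlap, the log2 difference was 7.39 ± 0.42 (SE, n = 3 per day, adjusted p 9.9e-23), and the ratio of pooled reads scaled by depth was 175 (95% exact counting interval 99.6 to 340). Crabp2, its sister protein, which hands the ligand to the receptor, had 24, 47 and 32 reads and then 303, 511 and 389. It was 29.98-fold higher (24.5 to 37.0) and had the log2 difference 4.92 ± 0.17 (adjusted p 5.0e-33). Such intervals here and below cover counting error only.

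The receptor gene Rarb, itself a textbook target of its own receptor, had 0, 2 and 0 reads at D0 and 7, 21 and 6 at D2 (43.6-fold, 11.2 to 375, adjusted p 1.1e-07). Cyp26a1, which encodes an enzyme that inactivates retinoic acid, had 2, 4 and 7 reads at D0 and 9, 9 and 6 at D2 (4.74-fold, 2.32 to 10.1, adjusted p 1.6e-03), from a mean of 9.02 to one of 47.5 CPM. Both days lay under the mean of 219 CPM that Cyp26a1 had at D6. Its relative Cyp26b1 had no read at D0, 0, 3 and 3 reads at D2, and 399 CPM at D6. Set against a floor of 3 pooled reads at D0, it was at least 5.13-fold higher by the reads counted. Such floor values, here and below, leave out the counting error of the day that had reads. Before the RefSeq starts of Rarb and Cyp26a1 lies the repeat that retinoic acid receptors are known to bind, and their promoters are shown for that reason. The 250 bases before the RefSeq start are given 5' to 3' on the strand of the gene (GRCm38.p6; Rarb at chr14:16575477-16575726 on the minus strand, Cyp26a1 at chr19:37697558-37697807 on the plus strand), with the hexamers of the repeat in capitals.
Rarb: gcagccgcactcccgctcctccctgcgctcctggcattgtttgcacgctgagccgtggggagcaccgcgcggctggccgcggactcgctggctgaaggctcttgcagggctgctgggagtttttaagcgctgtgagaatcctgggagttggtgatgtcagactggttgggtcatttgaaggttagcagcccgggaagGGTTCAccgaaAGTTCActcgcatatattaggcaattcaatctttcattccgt
Cyp26a1: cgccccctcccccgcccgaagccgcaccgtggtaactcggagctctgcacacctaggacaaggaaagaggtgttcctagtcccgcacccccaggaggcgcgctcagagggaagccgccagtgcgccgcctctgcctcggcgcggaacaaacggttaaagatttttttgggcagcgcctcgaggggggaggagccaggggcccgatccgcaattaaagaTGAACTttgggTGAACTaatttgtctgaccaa
The search was for 2 hexamers in the same direction (each of them, independently of the other, was allowed to be AGGTCA, or else GGGTCA, or else AGTTCA, or else GGTTCA) with 5 bases between them, on both strands. The match lay 53 to 37 bases before the RefSeq start of Rarb, on the strand of the gene, and 32 to 16 bases before that of Cyp26a1, on the opposite strand. The Rarb transcript with most reads starts inside this window, at base 16575543 of chromosome 14, so that the repeat lies within that transcript. In windows of the same length such a match was found for 28 of 27025 genes (0.104%). Among the genes tested, 7477 had a window and 4 had a match (0.0535%): Blvrb, Cyp26a1, Rarb and Syndig1. Of the 339 genes with a window that were called higher, 2 had a match, against 0 of the 453 called lower. None of the 23 genes of the Hox list with a window had one in these 250 bases. With 2 bases or 1 base between the hexamers, 55 (0.204%) and 53 (0.196%) of all windows matched, and no window of the retinoic acid list or the Hox list did. A match describes the letters of the window and is not a measured site.

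Over the whole list of retinoic acid metabolism, binding and receptors, 8 of the 17 genes tested were higher and 1 was lower, with a median log2 difference of 1.54. Dhrs3, which reduces retinal back to retinol, had 0, 1 and 1 reads and then 2, 6 and 2 (log2 difference 3.15, adjusted p 1.7e-03), and Rxra, a retinoid X receptor, had 2, 7 and 10 and then 4, 12 and 8 (1.84, adjusted p 0.00355). The 1 lower gene was Fabp5, a fatty acid binding protein that can also carry retinoic acid. It had 929, 1419 and 1139 reads at D0 and 75, 136 and 107 at D2, a log2 difference of -2.08 ± 0.12 (adjusted p 9.9e-23). Rarg had 0, 5 and 9 reads at D0 and 0 in each D2 library, too few reads in all to be tested. Rara had 5, 7 and 9 reads and then 4, 3 and 3, with a log2 difference of 0.34 that did not pass the test (adjusted p 0.75). Crabp1 and Crabp2 thus rose while Fabp5 fell.

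**Figure D1:**
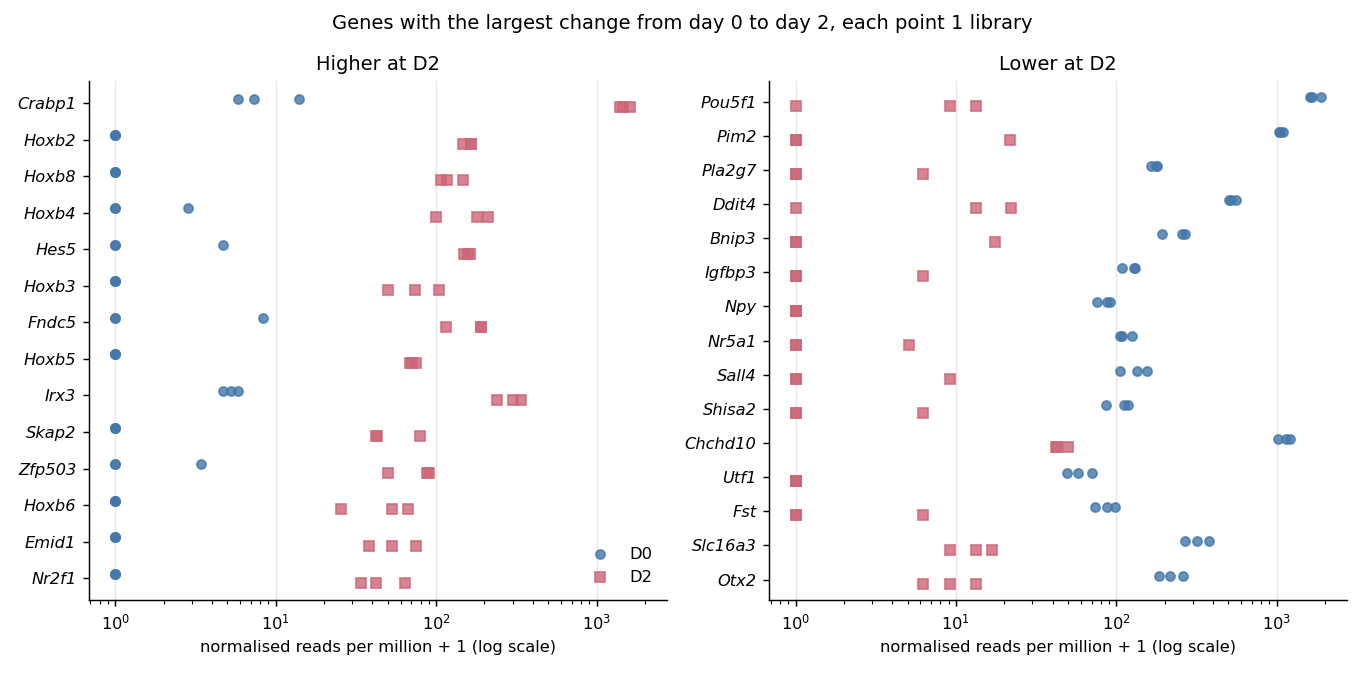
CPM plus 1 (log scale) for 14 of the 15 higher genes and the 15 lower genes with the largest change, each point 1 library (D0 circles, D2 squares). Genes were chosen only if the 3 D0 and the 3 D2 libraries did not overlap. Points at 1 are libraries with no read.

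The Hox genes encode homeodomain factors that give cells their position along the body axis, and they sit in 4 clusters in the order in which they are used. At D0 they were nearly silent, with 1, 4 and 1 reads in the 3 libraries (2.12 to 7.36 CPM). At D2 they had 106, 287 and 206 reads (870 to 1181 CPM), and the total went on to 2841 to 2991 CPM at D4 and 4921 to 5376 CPM at D6. The pooled reads of the HoxA, HoxB, HoxC and HoxD genes went from 1, 1, 0 and 4 at D0 to 123, 402, 24 and 50 at D2. Of 29 genes tested in the list of Hox genes and their cofactors, 22 were higher and 0 lower, with a median log2 difference of 4.26, or 3.58 with the 15 genes that had no read on 1 day set at their bound. The 19 Hox genes among the 22 all had at most 3 reads at D0 and so belong to the gained genes described further on.

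Hoxb2 (chromosome 11, 96351631 to 96354012, 2 exons) had no read at D0 and 20, 40 and 28 at D2, at least 75.3-fold higher. The bound is set against 3 reads pooled over the libraries of the day, the most that a count of 0 allows at 95%. It leaves out the counting error of the other day. Hoxb8 (13, 28 and 28 reads at D2), Hoxb3 (6, 25 and 14), Hoxb5 (9, 17 and 13) and Hoxb6 (3, 16 and 10) also had no read at D0, and were at least 59.0-, 38.5-, 33.4- and 24.8-fold higher. Hoxb4 had 0, 1 and 0 reads and then 12, 51 and 34 (249-fold, 43.6 to 9933). Hoxb1, at the end of the cluster (96365752 to 96368256), had 1 read in the 6 libraries and was not tested. With reads of mapping quality of at least 10 alone, Hoxb6 was no longer called (log2 difference 1.92).

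In the HoxA cluster on chromosome 6, Hoxa2 had 2, 13 and 9 reads at D2, Hoxa5 had 2, 12 and 9, Hoxa4 had 2, 3 and 7 and Hoxa3 had 4, 2 and 4, all with no read at D0. Hoxd1 (2, 9 and 3 reads at D2) and Hoxd4 (2, 5 and 6) had none at D0 either, and Hoxd3 and Hoxd8 had 1 each. In HoxC, Hoxc4 had 3, 8 and 4 reads and Hoxc5 had 3, 3 and 3. What came next differed between the paralogues. The ratio of the mean level at D6 to that at D2 was 1.38 for Hoxa2, 4.404 for Hoxa3, 5.47 for Hoxa4 and 9.02 for Hoxa5. In HoxD the same ratio was 0.201 for Hoxd1, 1.15 for Hoxd3, 1.83 for Hoxd4 and 3.88 for Hoxd8. In HoxB it was 0.958 for Hoxb4 but 5.56 for Hoxb2, 4.77 for Hoxb3, 6.76 for Hoxb5 and Hoxb8, 9.57 for Hoxb6 and 41.6 for Hoxb9, which had 4, 2 and 1 reads at D2. Hoxd1 and Hoxb4 thus had a lower mean at D6 than at D2. These ratios compare a gene with itself and were not tested.

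**Figure D2:**
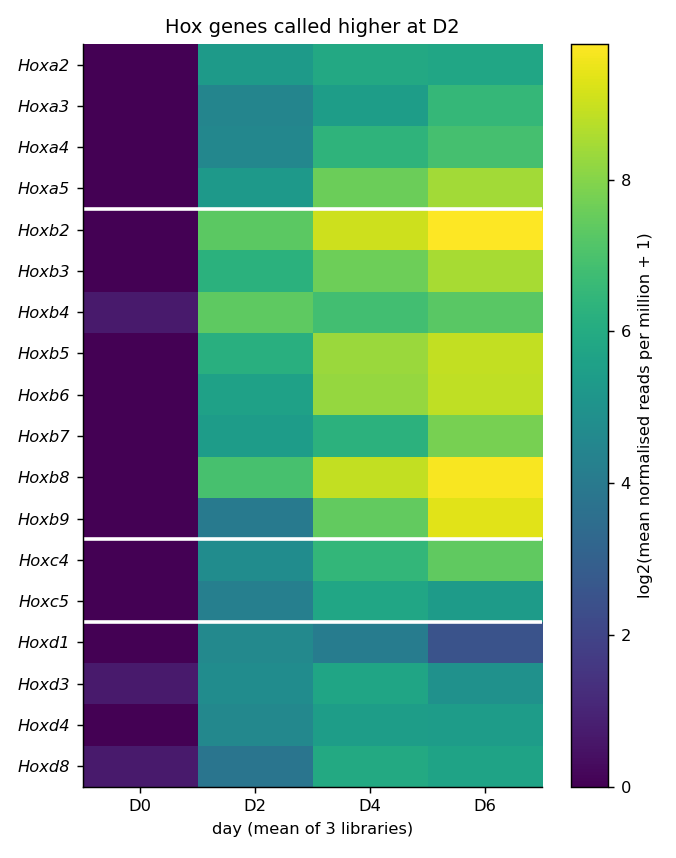
Mean of 3 libraries for 18 of the 19 Hox genes called higher at D2 (rows, by cluster, white lines between clusters) on the 4 days (columns), as log2 of CPM plus 1. Hoxd1 is darker at D6 than at D2, while Hoxb5, Hoxb6, Hoxb8 and Hoxa5 are brighter at D6.

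The cofactors that bind DNA beside Hox proteins were read at both days. Meis1 had 3, 6 and 8 reads at D0 and 13, 22 and 15 at D2 (log2 difference 2.89, adjusted p 1.2e-07), and Meis2 had 0, 4 and 5 and then 8, 17 and 21 (4.01, adjusted p 3.4e-07). Pbx2 went from a mean of 82.9 to one of 155 CPM (1.03, adjusted p 1.1e-03). Skap2, an adaptor protein gene on chromosome 6 (51857422 to 52012549) beside the HoxA cluster, had no read at D0 and 5, 19 and 8 at D2, at least 27.4-fold higher.

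Neural progenitor factors formed the next group, with 19 of 41 tested genes higher, 1 lower (Cited2, a transcriptional coregulator, log2 difference -1.82, not called without D2 replicate 1 or 3) and a median of 1.75 (1.57 with bounds). Hes5, a Notch target that holds progenitors undifferentiated, had 0, 2 and 0 reads at D0 and 18, 39 and 30 at D2 (112-fold, 29.99 to 936.5). Irx3, a homeodomain factor of the neural tube, had 2 reads in each D0 library and 29, 82 and 57 at D2 (71.9-fold, 32.3 to 199). Nr2f1, an orphan nuclear receptor, had no read at D0 and 4, 10 and 12 at D2, at least 22.2-fold higher. Mdk, the secreted growth factor midkine, long known as a retinoic acid responsive gene, was already abundant with 252, 478 and 362 reads at D0 and had 585, 1003 and 845 at D2 (5.72-fold, 5.32 to 6.15, adjusted p 6.5e-30).

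The early neural factor Sox1 had 6, 3 and 6 reads and then 13, 25 and 9 (log2 difference 2.93, adjusted p 5.9e-07), and the intermediate filament gene Nes had 10, 20 and 8 and then 7, 27 and 26 (2.00, adjusted p 1.0e-05). The proneural gene Neurog1 had no read at D0 and 2, 6 and 4 at D2, at least 10.3-fold higher. Pax6, an eye and forebrain factor, had 15, 19 and 10 reads at D0 and 10, 34 and 27 at D2 (2.03 ± 0.29, adjusted p 1.7e-07). On reads of mapping quality of at least 10 its log2 difference was 0.49 and was no longer called. In the same group Dll1, a Notch ligand, was higher (3.10, adjusted p 3.5e-04), and Prtg, a cell surface protein of early neural tissue, was higher at D2 (1.38) with 157 CPM, and had 6.55 CPM at D6.

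Outside these lists, Fndc5, which encodes the precursor of irisin, had 0, 4 and 0 reads at D0 and 14, 46 and 36 at D2 (61.6-fold, 23.3 to 231). Zfp503, a zinc finger repressor, had 1, 0 and 0 and then 6, 21 and 17 (113-fold, 19.2 to 4560). Emid1, an EMI domain protein, had none and then 9, 9 and 10, at least 24.0-fold higher. Genes of mature neurons did not follow as a group: of 33 neuron markers tested, 4 were higher and 5 lower. Without D0 replicate 2 or D2 replicate 2, 1 and 2 were higher, and without D2 replicate 3, 3 were lower. Their median was 0.43, or -0.02 with the bound used for the 1 gene without reads on 1 day and genes of at most 3 reads on both days left out, so that its sign depends on that choice. Gap43, a growth cone protein, was higher (30, 34 and 27 reads, then 23, 74 and 52, log2 difference 2.03 ± 0.21), as were Rtn1 (2.56), Ina (1.71) and Dpysl3 (1.74). The tubulin gene Tubb3 was lower with 58, 75 and 69 reads at D0 and 4, 20 and 14 at D2 (-1.08 ± 0.28, adjusted p 4.8e-03), and the microtubule regulators Stmn1 (-1.49) and Stmn2 (-1.95) were lower too, with Crmp1 (-1.42). Lhx5, a forebrain factor, had 6, 11 and 6 reads and none at D2, at least 2.99-fold lower. Map2 had 2, 5 and 5 reads and then 2, 4 and 2, with a log2 difference of 0.89 that did not pass the test (adjusted p 0.40).

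Among the losses, that of Pou5f1, the central factor of the pluripotent state, was the largest by log2 difference. It had 664, 1027 and 782 reads in the D0 libraries and 1, 3 and 0 in the D2 libraries (-7.79 ± 0.59, adjusted p 8.8e-17), a 241-fold fall (94.0 to 885). It lies on chromosome 17 (35506018 to 35510772, 5 exons). Of 22 pluripotency genes tested, 17 were lower and 1 was higher, with a median of -2.37 (-2.16 with bounds). Sall4, a zinc finger partner of Pou5f1, had 43, 84 and 63 reads and then 0, 2 and 0 (37.0-fold lower, 10.1 to 308). Utf1, a chromatin protein of embryonic stem cells, had 20, 31 and 33 reads and none at D2, at least 10.9-fold lower, and Gdf3, a secreted ligand of the TGF-beta family, had 102, 120 and 99 reads and then 9, 7 and 6 (log2 difference -2.52, adjusted p 3.2e-09).

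Otx2, an anterior homeodomain factor, had 76, 140 and 102 reads and then 1, 3 and 1 (24.8-fold lower, 10.51 to 76.8). Tdgf1, the Nodal coreceptor, had 25, 22 and 19 reads and Nodal itself 11, 10 and 12 at D0, both with none at D2, at least 8.57- and 4.29-fold lower, and Lefty1, a Nodal antagonist, had 14, 33 and 24 and then 1, 0 and 0 (27.7-fold lower, 4.81 to 1108). Dnmt3b, a DNA methyltransferase, had 76, 71 and 81 reads and then 2, 4 and 4 (log2 difference -2.96). Sox2, which neural progenitors also use, had 116, 134 and 127 reads and then 15, 45 and 29, a much smaller fall of 1.65-fold (1.31 to 2.10, log2 difference -0.73, adjusted p 4.8e-03). The 1 higher gene of the list was Gbx2 (0, 1 and 0 reads, then 1, 4 and 2), a factor also used at the border of the hindbrain. Nanog had 5, 10 and 2 reads and none at D2, at least 2.21-fold lower, and had too few reads in all to be tested. Lin28a, an RNA-binding protein that blocks let-7, was lower (-1.53, adjusted p 4.0e-05), one of 3 lower genes in the oncofetal list with Hmga1 (-0.48) and Igf2bp1 (-0.73), of 16 tested. Hmga1 lost its call without D0 replicate 1, D0 replicate 2 or D2 replicate 2 (-0.24), and Igf2bp1 without D0 replicate 2 or 3 or D2 replicate 1 or 3. Neither was called with plain library totals or at equal depth. Ccnd2 was the 1 higher gene there (3 were higher without D2 replicate 1), and the median was -0.31.

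Genes outside the pluripotency list fell too. Pim2, a serine/threonine kinase, had 429, 558 and 518 reads and then 0, 5 and 0 (117-fold lower, 50.1 to 362). Pla2g7, a secreted phospholipase, had 72, 97 and 77 and then 0, 0 and 1 (95.8-fold lower, 17.0 to 3801). Nr5a1, an orphan nuclear receptor of the steroidogenic organs, had 51, 57 and 51 and then 0, 1 and 0 (62.0-fold lower, 11.0 to 2462). Npy, the precursor of neuropeptide Y, had 37, 47 and 35 reads and none at D2, at least 15.5-fold lower. Igfbp3, which binds insulin-like growth factors, went from 44, 70 and 60 reads to 0, 0 and 1 (67.8-fold lower, 12.01 to 2693). Chchd10, a mitochondrial protein, kept some reads at D2: 417, 622 and 568 became 6, 10 and 8 (26.1-fold lower, 17.5 to 40.8).

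In each signalling list 1 gene was higher and 3 were lower, and each list was small. In the FGF list 1 gene of 9 tested was higher, Fgfbp3 (log2 difference 2.23), and 3 were lower with a list median of -0.74. Etv5, a factor that FGF signalling induces, had 17, 18 and 17 reads at D0 and none at D2, at least 6.75-fold lower. Shisa2, which retains FGF and Wnt receptors, had 48, 46 and 52 reads and then 0, 0 and 1 (56.9-fold lower, 10.1 to 2262), and the receptor Fgfr1 was lower (-1.29). In the BMP and TGF-beta list, 1 of 10 was higher, Id3, an inhibitor of basic helix-loop-helix factors (13, 15 and 12 reads, then 15, 28 and 25, log2 difference 2.11). Its 3 lower genes were the antagonist Fst (40, 47 and 34 reads, then 0, 0 and 1), the decoy receptor Bambi (-2.83) and Skil (-1.75, or -1.03 and not called without D2 replicate 2), and the median was -0.48. In the Wnt list, of 11 tested, the antagonist Sfrp2 was higher (23, 27 and 29 reads, then 52, 83 and 62, 2.67 ± 0.22). Its relative Sfrp1 was lower (-1.12), with the receptor Fzd5 (-2.59) and Tcf7l1 (-1.75, or -1.43 and not called without D2 replicate 2), and the median was -0.39. At equal depth Sfrp1 (-0.71), Fgfbp3 (1.67), Skil (-1.64) and Tcf7l1 (-1.75) were not called.

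Most genes of the glycolysis list were lower. Of 32 genes of glycolysis and glucose transport tested, 24 were lower and 1 higher, and the median log2 difference was -1.90 (-1.78 with bounds). The 24 include genes that are no enzymes or transporters of the pathway, such as Mif, Ddit4, Bnip3, Egln3, Higd1a and Ero1l. Ldha, which makes lactate, had 589, 806 and 621 reads and then 20, 34 and 36 (-3.11 ± 0.18, adjusted p 2.8e-22). Aldoa, an aldolase, had 642, 964 and 757 reads and then 33, 56 and 48 (-2.73), and Pkm, the pyruvate kinase, had 1396, 1957 and 1654 and then 113, 303 and 195 (-1.70). Eno1 (-2.33) shares nearly all its sequence with Eno1b (-2.32), and reads could be split between them. The glucose transporter Slc2a3 had 241, 320 and 278 reads and then 7, 10 and 6 (-3.77 ± 0.29), while its relative Slc2a1 was the 1 higher gene (128, 132 and 95 reads, then 54, 126 and 94, 0.99 ± 0.15, adjusted p 4.6e-07). The proton-coupled lactate exporter Slc16a3 was 25.0-fold lower (12.1 to 62.7), and the stress-responsive genes Ddit4, an mTOR inhibitor, and Bnip3, a mitophagy receptor, were 41.7-fold (20.1 to 104) and 33.0-fold lower (12.8 to 122). In the nuclear genes of oxidative phosphorylation 4 of 75 were higher, among them Ndufa1 (1.65) and Ndufa5 (0.96), and 6 were lower, among them Atp5b (-0.61) and Ndufv3 (-0.99, or -0.65 and not called at equal depth), with a median of -0.04. With plain library totals that split was 10 higher and 2 lower, and 2 to 3 genes were lower when any 1 library other than D2 replicate 1 was left out.

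In the list of the amino acid response and serine synthesis 14 of 24 genes were lower and 0 higher, with a median of -1.18. Atf4, the transcription factor that drives this response, had 187, 306 and 237 reads and then 26, 47 and 30 (-1.44 ± 0.18, adjusted p 4.8e-09). Its targets Chac1, which degrades glutathione (54, 74 and 67 reads, then 3, 2 and 2, -3.25), and Trib3 (34, 55 and 54, then 2, 4 and 0, -3.36) were lower, as were the mitochondrial folate enzyme Mthfd2 (-1.70) and the transporter Slc1a4 (-1.95). Without D2 replicate 2 the count was 9. Chaperones were lower in 11 of 28 and higher in 1, with a median of -0.37. Hspb1, a small heat shock protein, had 26, 37 and 29 reads and then 1, 1 and 2 (-2.78), Hspa9 (-0.83) and Hsp90ab1 (-0.39) were lower, and Hspa8, the constitutive Hsc70, was higher by 0.37 ± 0.08 (adjusted p 9.9e-04). The count of lower chaperones was 3 with plain library totals and 4 to 7 when any 1 of the 6 libraries was left out.

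Selenoproteins and redox genes split, with 5 of 32 higher, 7 lower and a median of -0.15 (9 higher and 4 lower with plain library totals, and 4 lower without D0 replicate 1, D0 replicate 2 or D2 replicate 2). Selenow had 24, 27 and 35 reads and then 42, 62 and 57 (2.27 ± 0.21), and Selenoh had 56, 83 and 88 and then 69, 144 and 128 (1.95 ± 0.15). Gpx1, a glutathione peroxidase, was higher too (1.78), with the metallothionein Mt2 (1.41), while its relative Gpx4 was lower (-0.99). Cholesterol synthesis had 6 of 34 higher and 0 lower with a median of 0.47. Fads2 and Fads1, the fatty acid desaturases, were higher (1.03 and 0.78), with Hmgcs1 (1.03) and Acat2 (0.66), early enzymes of the pathway. Fads1 was not called without D2 replicate 2 (0.73) or 3 (0.69) nor at equal depth (0.86), and Hmgcs1 and Acat2 were not at mapping quality of at least 10. The count was 14 with plain library totals and 2 with mapping quality of at least 10.

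In DNA replication 5 of 43 genes were higher (Tk1 1.19, Pcna 0.52, Rrm2 0.54, Rfc3 0.58 and Mcm4 0.61) and 0 lower, with a median of 0.22. In mitosis 2 of 39 were higher (Mad2l1 1.09 and Mki67 0.85) and 0 lower, a share near the 4.69% over all genes, with a median of 0.19. With plain library totals these counts were 9 and 10. The replication count was 3 without D0 replicate 3, D2 replicate 2 or D2 replicate 3. Rfc3 lost its call in these cases and without D2 replicate 1, and Rrm2 without D2 replicate 2 or 3. Mki67 was not called without D0 replicate 3 or D2 replicate 2, and 5 mitosis genes were higher without D2 replicate 1. Of the G1 cyclins, kinases and inhibitors, 5 of 23 were higher and 1 lower, with a median of 0.46. They included the cyclin Ccnd2 (34, 42 and 44 reads, then 17, 57 and 29, 1.10 ± 0.22) and its kinase Cdk4 (0.47). E2f2 (0 pooled reads at D0 and 6 at D2) and the inhibitor Cdkn2c (0 and 4) were also among them, and the lower gene was Ccnd3 (-0.65). Without D0 replicate 2, D2 replicate 2 or D2 replicate 3, 3 were higher, and in these cases and without D0 replicate 3, 0 were lower. E2f2 was not called without D2 replicate 2, nor Cdkn2c without D0 replicate 2 or D2 replicate 3. With limma-trend in place of limma-voom, E2f2, Cdkn2c, Rrm2 and Mki67 were not called. At equal depth Rfc3, Rrm2, Mki67 and Cdk4 were not called. The p53 list had 1 of 18 higher (Ei24, 1.06) and 1 lower (Sesn1, -1.60), with a median of -0.24. The count of higher genes was 2 without D2 replicate 3. Neither was called at equal depth, Ei24 was not without D0 replicate 2 or D2 replicate 2 (0.91 and 0.85), and Sesn1 was not when any 1 of the 6 libraries was left out (-2.05 to -1.15).

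Most genes of the matrix and cell surface lists were not called, and the higher calls in each rest on 1 or 2 genes. In basement membrane and matrix 6 of 21 were lower and 2 higher, with a median of -0.37. Without D2 replicate 3, 3 were lower, and without D0 replicate 1, D0 replicate 2 or D2 replicate 2, 1 was higher. Sparc, a matrix glycoprotein, had 90, 127 and 109 reads and then 2, 5 and 2 (-3.64 ± 0.45), and Lamb1, a laminin chain, had 16, 37 and 28 and then 1, 1 and 0 (-3.27), while the galectin Lgals1 was higher (0.82). Of 15 adhesion genes 2 were lower, the integrins Itgb5 (51, 76 and 85 reads, then 1, 2 and 1, -3.91) and Itga6 (-1.40), and 1 was higher, Cd24a (0.96), with a median of -0.20. Itga6 was not called without D2 replicate 2 or 3, nor at equal depth (-0.70). Of 23 serum response and cytoskeleton genes 5 were lower, among them Tpm1 (-1.99), Ier3 (-2.61) and Flna (-0.78), and 1 was higher, Tpm4 (0.59), with a median of -0.16. With plain library totals that split was 3 higher and 2 lower. With 1 library left out, 1 (without D2 replicate 3) to 4 (without D2 replicate 1) were lower and 0 to 2 higher. Flna lost its call without D0 replicate 1, D2 replicate 1 or D2 replicate 3, Ier3 without D2 replicate 2 or 3, and Tpm4 without D0 replicate 2 or D2 replicate 2. Flna, Tpm4 and Tpm1 were not called at equal depth, nor was Flna with plain library totals (-0.60). Imprinted genes had 4 of 15 higher and 6 lower with a median of -0.40. Without D2 replicate 1 there were 1 higher and 3 lower, and without D0 replicate 2 or D2 replicate 2 there were 3 of each. The splicing protein gene Snrpn had 359, 505 and 418 reads and then 21, 31 and 31 (-2.57 ± 0.17, adjusted p 4.4e-19), Peg10 (-2.22) and Plagl1 (-2.47) were lower, and Nnat, a neural membrane protein, was higher (16, 22 and 24 reads, then 25, 32 and 41, 1.99 ± 0.26).

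**Figure D3:**
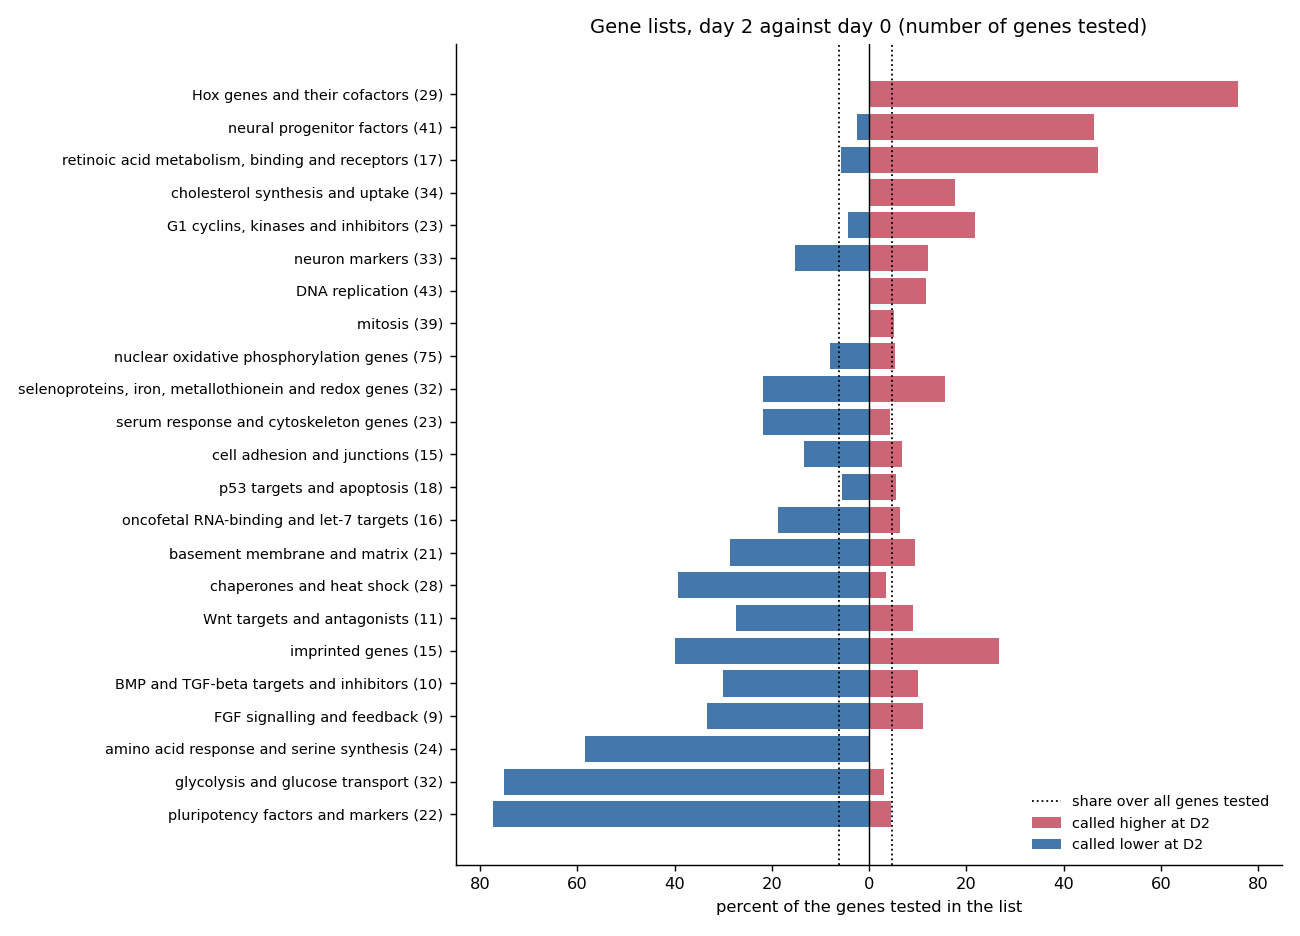
Percent of the tested genes of each list that were called higher (right) or lower (left) at D2, with the number tested in brackets. Dotted lines mark 4.69% and 6.16%, the shares over all 9309 genes tested. The bars for Hox genes, neural progenitor factors and retinoic acid genes reach farthest to the right, and those for pluripotency, glycolysis and the amino acid response farthest to the left.

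Markers of other lineages had few reads on both days. Of 18 mesoderm and primitive streak markers 12 had a read in the series and 0 had enough to be tested, and their summed level was 12.7 to 19.4 CPM in the D0 libraries and 8.21 to 41.2 CPM in the D2 libraries. For endoderm and trophectoderm 13 of 25 had a read, 0 of 2 tested genes were called, and the sums were 155 to 172 and 98.5 to 148 CPM. For fibroblast, glial and haematopoietic markers 11 of 20 had a read and 0 of 1 tested was called, with sums of 42.3 to 55.9 and 0 to 32.9 CPM. The part of such cells in the differences above was not tested.

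The genes first gained were taken as those called higher with at most 3 reads over the D0 libraries together, and the genes first lost as those called lower with at most 3 reads over the D2 libraries. The reads of the 2 days chose both sets, so their levels at D0 and D2 are a description. There were 80 gained genes (0.859% of those tested) and 122 lost genes (1.31%). Since D0 was read 1582131 times and D2 545795 times, 3 reads are a stricter limit at D0. With every library thinned to 120326 reads, there were 44 gained and 20 lost genes, so that the larger set changes with the depth. Gained genes held 0.247 to 0.277% of the reads of a D2 library, and lost genes 0.397 to 0.422% of those of a D0 library.

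Of the 80 gained genes 36 had no read at D0. Besides the 19 Hox genes, 8 were neural progenitor factors and 3 belonged to the retinoic acid list, and 46 were in none of the lists. Several encode transcription factors: Irx5 (2 reads at D0 and 31 at D2), Tshz1 (0 and 21), Pax2 (0 and 7), Gbx1 (0 and 10) and Nr2f2 (2 and 10). Others encode receptors of migrating cells and axons, Ednrb (0 and 13), Ret (0 and 8), Robo2 (2 and 10) and Nrp2 (1 and 8). Enzymes were gained too, such as the carbonic anhydrase Car3 (2 and 41), the hexokinase Hk3 (0 and 11) and Porcn (1 and 22), which acylates Wnt ligands.

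The gained genes then parted ways. The mean level was highest at D6 for 48, at D4 for 19 and at D2 for 13 of them. Over the 9309 genes tested these counts were 2899, 1693 and 1717. A tested gene needed at least 30 reads over the 12 libraries. Genes with few reads at D0 and D2 thus entered only through D4 and D6, and that filter partly sets the later peaks. At D6, 42 gained genes stood at over 2 times their D2 mean and 8 at under 0.5 times it. Over all genes tested these counts were 1579 and 867. Among the 8 gained genes that fell, Car3 went from 74.8 CPM at D2 to 37.4 at D4 and 2.12 at D6. Hk3 went from 22.04 to 18.4 and 0 CPM. In the other direction, Cyp26b1 went from 9.35 CPM at D2 to 175 and 399, Neurog1 from 20.7 to 60.5 and 121, and Rtn1 from 20.7 to 105 and 265. These courses were not tested.

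Of the 122 lost genes 32 had no read at D2, and 112 had their highest mean at D0. The rule that chose them favours both. Over the 9309 genes tested, 99 had no read at D2 and 3000 had their highest mean at D0. At D4 47 and at D6 45 of the lost genes still had at most 3 reads, while 29 were back to over 0.5 times their D0 mean at D6. Over all genes tested these counts were 118, 136 and 8033. The losses that lasted included Utf1, Tdgf1, Nodal, Etv5 and Mogat2, an acyltransferase, each at 0 CPM at D2, D4 and D6. Enpp2, which makes lysophosphatidic acid, had 72 reads at D0 and none at D2, and Gpr37, an orphan receptor, had 42 and none. Some genes were low at D2 and higher again later. D2 had the fewest reads, and this return was not tested. Rcan2, a calcineurin regulator, went from 28.1 CPM at D0 to 2.74 at D2 and 54.7 at D6, Hsf2, a heat shock factor, from 34.4 to 6.85 and 39.05, Foxd3 from 26.5 to 1.37 and 24.6, and Pou3f1 from 23.1 to 3.49 and 35.1. Slc1a3, a glutamate transporter of glia, went from 63.2 to 2.74 and to 54.4 CPM at D4. In none of the lists were 101 of the lost genes, and 7 were pluripotency genes.

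Poly(A) tails were compared next. Over all kept reads the median tail was 100.2, 103.4 and 105.5 nt in the D0 libraries and 96.6, 96.7 and 98.5 nt in the D2 libraries, a mean difference of -5.81 nt with no overlap (exact two-sided permutation p 0.10, the smallest that 3 against 3 libraries allow). Reads from 30 to 90 nt were 38.3% ± 1.58 of the reads of D0 and 41.8% ± 0.524 of those of D2 (SD, n = 3, exact permutation p 0.10). Reads under 30 nt made up 2.28% ± 0.378 and 2.86% ± 0.474 (exact permutation p 0.2), and those values overlapped. Taken for each library within each run, the 9 medians of D0 lay between 99.4 and 106.3 nt and the 9 of D2 between 96.2 and 98.6 nt. These are pieces of the same 3 libraries per day and add no replicates. In 5 kinds of RNA standard with tails made in vitro (453 reads at D0 and 309 at D2), 3 measured longer and 2 shorter at D2, by -4.96 to 15.3 nt. The 2 that measured shorter were the kinds with the shortest tails. Reads of the standards were pooled over the libraries of a day, and a shift of the measurement was not tested.

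Ribosomal protein genes carried the larger difference. Their reads had a median tail of 97.1 ± 3.23 nt at D0 and 86.7 ± 0.725 nt at D2 (difference -10.4 nt, no overlap, exact permutation p 0.1). The reads of all other genes had 105.8 ± 2.61 and 102.2 ± 1.38 nt (-3.61 nt, exact permutation p 0.2), and the days overlapped. Among these other genes, reads of genes called lower in abundance went from 103.2 to 94.5 nt (-8.64 nt, no overlap, exact permutation p 0.1), and reads of genes called higher from 105.4 to 106.1 nt (0.702 nt, exact permutation p 0.7). Within a library, the genes called higher stood 1.22 to 1.64 nt under the genes not called at D0 and 1.26 to 4.04 nt above them at D2, and the genes called lower stood 3.15 to 4.39 nt under them at D0 and 8.26 to 9.42 nt under them at D2. The libraries of the days did not overlap in either measure (exact permutation p 0.1).

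These set medians weigh a gene by its reads, and the genes that supply the reads change with the day. Counted gene by gene, for genes with at least 20 pooled reads on both days, the picture differed. The median change was -4.27 nt over 232 genes called higher, -3.24 nt over 256 called lower and -2.87 nt over 3421 not called, so that the gap between higher and lower genes seen in pooled reads was not present. Over 82 ribosomal protein genes it was -11.3 nt, and 81 of them were shorter.

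**Figure D4:**
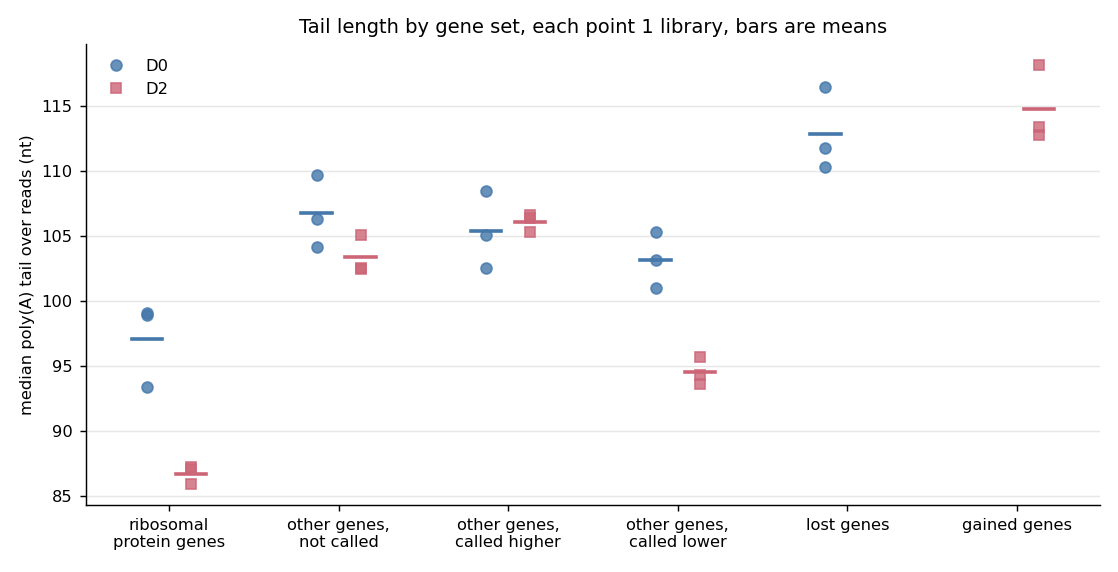
Median poly(A) tail over the reads of a gene set in nt, each point 1 library (D0 circles, D2 squares) and bars the mean of 3. The D2 points of ribosomal protein genes and of genes called lower lie wholly under the D0 points, and those of genes called higher lie among them. Lost genes are drawn for D0 and gained genes for D2, where they have reads, and the axis does not start at 0.

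With limma on gene medians, weighted by reads, 912 genes with at least 20 reads in each of the 6 libraries could be tested. Tails were shorter at D2 for 102 (11.2%) and longer for 5 (0.548%), and the median change was -4.83 nt. Of 81 ribosomal protein genes 59 were shorter and 0 longer. Of the other 831 genes 43 were shorter and 5 longer, with a median change of -3.95 nt. The share of reads from 30 to 90 nt was higher for 100 genes (11%) and lower for 4 (0.439%). For the share under 30 nt limma called 0 genes in either direction, and before adjustment 75 had a higher and 8 a lower share with p under 0.05. The count of shorter genes depended on single libraries: it was 21 without D2 replicate 2, 45 without D2 replicate 3 and 50 without D2 replicate 1. The count with a higher share from 30 to 90 nt was 33, 43 and 51 without these libraries in the same order and 54 without D0 replicate 2.

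Of the 5 genes with longer tails, Hspa8 had medians of 67.7, 67.6 and 74.5 nt at D0 and 90.1, 97.6 and 95.1 nt at D2 (25.4 ± 3.13 nt, adjusted p 3.6e-09), on 326 to 1232 reads per library. It was also higher in abundance, and its share of reads from 30 to 90 nt fell by 16.9 points. Dnaja1, a cochaperone of the Hsp40 family, had 88.8, 89.0 and 91.6 nt and then 112.5, 101.7 and 111.4 nt (16.8 ± 5.85 nt, adjusted p 0.045). Over the chaperone list, 2 of 23 genes tested (Hspa8 and Dnaja1) were longer and 1 (Tcp1) was shorter, 15 had a change under 0, and the median change was -0.60 nt. The splicing factor Hnrnpf had 117.4, 101.0 and 108.6 nt and then 141.0, 127.9 and 128.9 nt (22.4 ± 5.04 nt, adjusted p 1.1e-03). Vim, the intermediate filament vimentin, had short tails at D0, 67.1, 55.9 and 68.3 nt, and 88.9, 82.5 and 77.7 nt at D2 (19.1 ± 5.54 nt, adjusted p 0.012). The ubiquitin-conjugating enzyme Ube2n was longer by 23.7 ± 8.03 nt (adjusted p 0.036). The abundance of these genes other than Hspa8 was not called. With the mean tail in place of the median, Dnaja1 (11.8 nt) and Ube2n (10.9 nt) were no longer called. Neither was called with at least 10 reads per library. Dnaja1 was also not called at mapping quality of at least 10 or on its most abundant transcript alone. When 1 library was left out, Dnaja1 kept its call only without D0 replicate 1, and Ube2n only without D0 replicate 2. Vim lost its call without D0 replicate 2, D2 replicate 1 or D2 replicate 2 (14.5 to 18.8 nt).

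Of the shortened genes outside the ribosome, Mt1, a metallothionein, had 137.6, 136.4 and 135.4 nt at D0 and 96.6, 110.3 and 95.8 nt at D2 (-35.3 ± 6.86 nt, adjusted p 2.7e-04), with no call in abundance (log2 difference -0.04). Gars, the glycyl-tRNA synthetase, had 94.8, 111.6 and 121.3 nt and then 74.2, 76.3 and 71.0 nt (-35.8 ± 7.73 nt). Asns, the asparagine synthetase, had 114.8, 112.5 and 132.4 nt and then 69.7, 93.2 and 93.7 nt (-30.5 ± 7.64 nt) and was lower in abundance (-0.94). Trappc1 (-32.2 nt), a vesicle tethering subunit, Mrpl54 (-30.0 nt), a mitochondrial ribosomal protein, and Scpep1 (-29.9 nt), a carboxypeptidase, completed the 6 largest without overlap. Each of these 3 lost its call without D2 replicate 2 (-32.3, -27.0 and -21.7 nt). So did Trappc1 without D0 replicate 2 or D2 replicate 1, Mrpl54 without D2 replicate 3 and Scpep1 without D0 replicate 1 or D2 replicate 1. Mrpl54 (-14.7 nt) and Scpep1 (-16.0 nt) lost theirs with the mean tail also.

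Other shortened genes were picked after their values were seen, as single examples. They were Qars (-28.5 nt) and Sars (-23.2 nt), which encode tRNA synthetases, the elongation factor genes Eef1a1 (-16.4 nt) and Eef2 (-13.9 nt), and Tpt1 (-15.4 nt). In the amino acid list 2 of the 4 genes tested were shorter, Asns and Psat1 of serine synthesis (-20.6 nt). In the glycolysis list the enzyme genes Pgk1 (-25.6 nt) and Gapdh (-9.51 nt) and the cytokine gene Mif (-14.1 nt) were shorter, 3 of the 13 list members tested (with overlapping libraries for Mif), and these 3 fell in abundance also (-1.96, -0.89 and -1.19 on the log2 scale). Gap43 and Selenoh went the other way in abundance. Gap43 had 105.3, 118.4 and 134.3 nt and then 77.5, 95.4 and 84.9 nt while its level rose, and Selenoh was shorter by 20.3 nt, with overlapping libraries. Of the 76 other genes called higher in abundance 5 were shorter and 1 longer, and of the 104 called lower 14 were shorter and 0 longer, beside 24 shorter and 4 longer of the 651 not called.

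**Figure D5:**
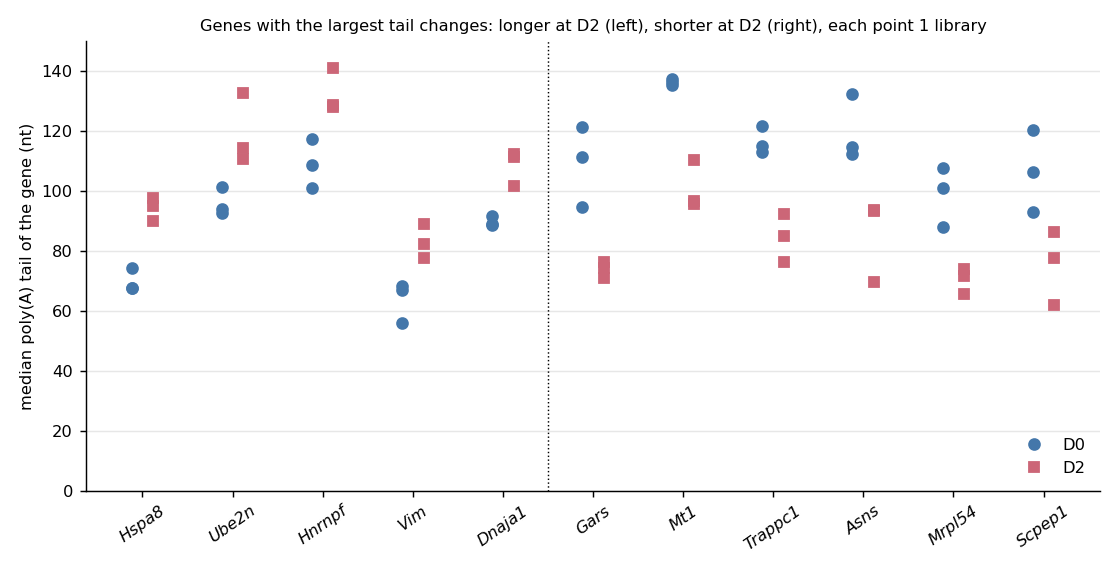
Median poly(A) tail in nt for the 5 genes that were longer and the 6 that were most shortened at D2, each point 1 library (D0 circles, D2 squares). Genes were drawn only if they were called and the medians of the days did not overlap. Mt1 has the longest tails at D0, 135.4 to 137.6 nt, and Vim the shortest, 55.9 to 68.3 nt.

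The gained genes had at most 3 reads each at D0, too few to compare their tails between the days, and are given at D2 beside other genes of the same libraries. Their reads had medians of 113.3, 112.8 and 118.1 nt in the D2 libraries, against 102.4, 102.5 and 105.1 nt for genes not called. Of the 80, 23 had at least 20 reads at D2, with gene medians from 79.8 nt (Porcn) to 169.9 nt (Hoxb3). The median over those 23 was 108.6 nt, against 103.6 nt over 4057 genes with as many reads. Tails of Hoxb5 (145.4 nt, 39 reads), Hoxb8 (139.6 nt, 69 reads) and Skap2 (149.7 nt, 32 reads) were long, while those of Hes5 (101.4 nt, 87 reads) and Rarb (94.5 nt, 34 reads) were near the rest. Crabp1, measured on 818 reads at D2, had a median of 132.4 nt with quartiles of 105.1 and 161.4 nt, and Cyp26a1, on 24 reads, 160.9 nt. Crabp2 had tails on both days and its medians overlapped, with 98.8, 112.3 and 107.9 nt and then 102.0, 108.8 and 107.7 nt. At D0 the lost genes had a median of gene medians of 114.3 nt, against 109.9 nt over 7221 genes, and Pou5f1 had 115.0 nt on 2473 reads. These levels were not tested.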

How the data were processed

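Poly(A) RNA of 12 P19 cultures (D0, D2, D4 and D6, 3 replicates each) was sequenced directly on nanopores. The authors called bases with Guppy, separated barcodes with Deeplexicon, mapped reads with Minimap2 (version 2.20 in the submitters' processing notes, mm10, GENCODE vM17 transcripts) and measured tails with Nanopolish. They deposited 1 line per read, with the transcript, the mapping quality score, the tail length in nt and a quality tag. A second deposited table holds the authors' log2 fold changes and p-values and was not used. Replicates are biological by the study's methods, though each run holds 1 day.

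Of 6306434 lines, 69 were malformed and 289262 carried no barcode. Reads with the tag PASS on mRNA were kept, without pseudogenes and mitochondrial genes, 4274320 in all, of which 2387 lines (0.0558%) repeated a read. Columns of other samples numbered 0. Reads were summed per gene symbol (156 symbols lay on 2 chromosomes). Kept reads per library were 527377 ± 82497 at D0 and 181932 ± 60407 at D2 (SD, n = 3), so that low levels were measured less precisely at D2. Run names of D0 also carry the mark D2, and libraries were grouped by their labels.

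Genes with at least 30 reads over the 12 libraries were tested with limma-voom (limma 3.58.1, R 4.3.3; 0.5 reads added; TMM factors with trims of 30% and 5%), with all 4 days in 1 fit and Benjamini-Hochberg adjustment at 0.05. As the deposit has no column of counts, counting was done here from the read lines. Tails were fitted with limma on gene medians and on shares under 30 nt and from 30 to 90 nt, weighted by reads, for genes with at least 20 reads in each of the 6 libraries. Library values were compared with exact two-sided permutation tests. Pooled ratios have 95% exact intervals, which cover counting error only, and a count of 0 was set at a floor of 3 reads over the libraries of a day. Ratios against that floor leave out the counting error of the other day, so they are not 95% limits. The procedures were tested on simulated data. Other steps used Python 3.11.15, numpy 2.4.6, pandas 2.3.3, scipy 1.17.1 and matplotlib 3.10.9. Positions are those of GENCODE vM21 (GRCm38), in which 908 of 912 transcripts were matched and 905 had the same position as in the read lines. Promoters are from RefSeq (GRCm38.p6).

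The members and gene lists were chosen with earlier results of these data known. Named were the 15 higher and 15 lower genes with the largest log2 difference among called genes without overlap and with a mean of at least 30 CPM on 1 of the days, the 4 called genes of each list with the smallest adjusted p, the gained and lost genes, the 6 largest tail changes in each direction (5 existed for longer tails) and 11 genes of the pluripotent and neural course. The tail changes were taken among called genes whose medians did not overlap between the days. Other genes of the lists were named after their values were seen. Alternatives were other scaling, filters, test, mapping quality, tags, depth, tail average, weights, class limits and replicates. The values of 5 of these genes are not reported here.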

Additional observations from a re-analysis of the deposited data

How the results depend on the processing

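No named gene that was called changed sign under an alternative run, but the balance of calls did turn. With plain library totals 703 genes were higher and 371 lower, and more were higher also with no filter (904 and 711), with at least 100 reads (426 and 336) and without D2 replicate 2 (352 and 302) or 3 (395 and 315). Plain totals also turned the balance of the serum response, redox and oxidative phosphorylation lists, and the neuron marker median changes sign with bounds. With no filter on reads 904 were higher, 579 gained and 246 lost, and with at least 100 reads 336 were lower, 41 gained and 17 lost. With mapping quality of at least 10, 265 were higher, 305 lower and 77 lost, the lower genes were 9 in pluripotency and 6 in the amino acid list, and 3 tails were longer. Thinned to the smallest library, 145 were higher and 187 lower, with 44 gained and 20 lost. The thinned lists had 5 higher retinoic acid genes, 11 Hox genes, 9 neural progenitor genes, 11 lower pluripotency genes and 8 lower amino acid genes. With limma-trend 194 genes were lost. Tails were longer for 3 genes with at least 10 reads per library, and with other class limits the share from 30 to 90 nt was lower for 2 genes. Fewer reads or samples entered the thinned, filtered and left-out fits, and for the other changes the cause was not tested.

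Leaving out 1 library at a time gave 336 to 395 higher and 302 to 444 lower genes, 9 to 13 lower amino acid genes, 64 to 87 gained and 80 to 110 lost genes. Tails were then shorter for 21 to 141 genes and longer for 2 to 5, the share from 30 to 90 nt was higher for 33 to 135 and lower for 1 to 3, and the share under 30 nt was higher for 0 to 1. The lowest count of shorter tails came without D2 replicate 2, the deepest D2 library. The number of lower glycolysis genes (24) stayed within 1.5 times in every alternative.

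The correlations of same-numbered deviations were -0.066, -0.008 and 0.007, which gave no sign of pairing by replicate number. These deviations hold counting error, which could hide a pairing, so none was excluded. With a replicate block 453 genes were higher and 594 lower, 8 tails were longer and 136 shorter, and the share from 30 to 90 nt was higher for 81 genes and lower for 1. For single named genes, 1717 values kept direction and call and 104 lost the call. Depth limits the genes with few reads, above all at D2. The counts of gained and lost genes at equal depth and without single libraries, and the tails without ribosomal protein genes, were added after the data were seen.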
